A study of Mus musculus with 33 samples.

Results

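Mouse embryonic fibroblasts that are being reprogrammed to pluripotency lose the surface protein Thy1 before they gain the surface antigen SSEA1, and the comparison described here sets the cells that had lost Thy1 and not gained SSEA1 (Thy1-SSEA1-, written Thy1- below) against the cells that had kept Thy1 (Thy1+SSEA1-, written Thy1+ below). Libraries of the same arm and day were paired, which gave 4 pairs, or 8 of the 33 samples of the series: control days 4 and 8, and Dppa2/4 days 8 and 14. The cells carried 1 copy each of a doxycycline-inducible cassette of Pou5f1 (Oct4), Sox2, Klf4 and Myc at Col1a1, of the rtTA transactivator at Rosa26 and of an Oct4-GFP reporter (genotype Col1a1-OSKM+/-, Rosa26-rtTA+/- and Oct4-GFP+/-) and came from a cross of a B6;129S4 strain with the reporter allele Pou5f1tm2Jae, a B6.Cg strain with the rtTA*M2 allele at Rosa26 and a B6;129S4 strain with the tetO cassette at Col1a1. They were primary cells of 14-15 dpc embryos, and both arms were given doxycycline at 1 µg/ml in medium with serum and ESGRO (leukaemia inhibitory factor), so that cells of either arm were exposed to the 4 factors. The cells were transduced with lentivirus before that, for overexpression of Dppa2 and Dppa4 in the one arm and for a control overexpression in the other. At days 8 and 14 the sorted cells were also negative for Oct4-GFP. PolyA RNA was sequenced and is given as FPKM, fragments scaled to transcript length and to the mapped fragments of the library. Each arm, day and gate has 1 library, and the labels name no separate cultures, so the spread below is the spread between 4 pairs that differ in arm and day.

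Thy1 is a glycolipid-anchored protein of the immunoglobulin superfamily that fibroblasts carry, and SSEA1 is a carbohydrate antigen of early mouse embryos and embryonic stem cells. Cells that keep Thy1 under the 4 factors are mostly refractory to reprogramming, while Thy1- cells are an intermediate from which SSEA1+ cells, and later Oct4-GFP+ cells, arise. The early phase of this path is known for loss of the mesenchymal programme and gain of epithelial genes, and the late phase for activation of the endogenous pluripotency network. In sorted bulk RNA, fewer cells of a type and less RNA per cell cannot be told apart.

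The 8 libraries had an implied depth of 24.5 to 35.5 M fragments (M, mega), and their pairwise Pearson correlation over genes on the log2 scale ranged from 0.842 to 0.954. Of the other Thy1- and Thy1+ pairs, 3 are kept apart here. The labels also name both gates at control day 11, but no value column was matched to the Thy1+ sample, so that pair is missing. The Dppa2/4 day 4 pair was left out of the rule because its Thy1+ library had Dppa2 at 0.354 FPKM, against 175 and 171 FPKM in the Thy1+ libraries of that arm at days 8 and 14. At day 2 the Thy1- libraries went against their gate in part. Thy1 had 164 and 230 FPKM in the control and the Dppa2/4 Thy1- library of day 2, against 241 and 195 FPKM in the Thy1+ libraries of that day. Day 2 is therefore set beside the later days and not joined with them.

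Over all genes, 14764 passed the filter of at least 1 FPKM in at least 2 of the 8 libraries. Of these, 40 genes (0.271%) were higher and 54 genes (0.366%) were lower in Thy1- cells at an adjusted p under 0.05 (limma with Benjamini-Hochberg adjustment, arm and day as a block), and all 94 (0.637%) kept 1 direction in 4 of 4 pairs. In 47 of the 94 the 4 Thy1- values did not overlap the 4 Thy1+ values, where over all genes 1.40% lay above and 2.52% lay below without overlap. At least 1 on the log2 scale separated the gates in 34 of the 40 higher genes and in 20 of the 54 lower genes. Whatever the test, 33 genes (0.224%) were higher and 12 (0.0813%) lower by at least 1 on the log2 scale in each of the 4 pairs. The counts were larger among protein-coding genes alone. Fitted on the 12592 protein-coding genes alone, 320 genes were higher (2.54%) and 720 lower (5.72%). These included all 68 protein-coding genes among the 94, and 1039 of the 1040 kept 1 direction in 4 of 4 pairs. A call in a fit blocked by pair favours genes that keep 1 direction. Neither the 94 nor the 1039 is therefore separate support for the calls. The total degrees of freedom behind each test were 5.29 with all genes and 7.50 with protein-coding genes alone. The counts also depended on each pair: with all genes, 7 higher and 2 lower were left without the control day 4 pair, 16 and 3 without control day 8, 14 and 5 without Dppa2/4 day 8, and 3 and 4 without Dppa2/4 day 14. With protein-coding genes alone the same 4 omissions left 46 and 65, 40 and 48, 104 and 243, and 218 and 551. Of the 94 genes, 4, 9, 9 and 5 were still called in the fit over all genes after these omissions.

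**Figure D1:**
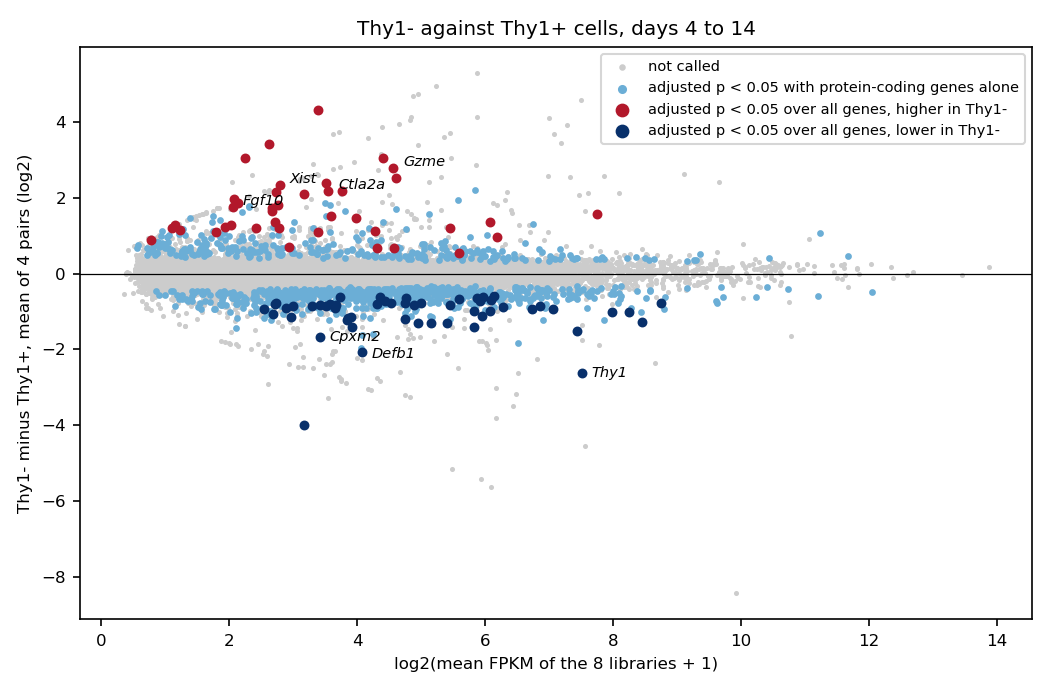
Difference between Thy1- and Thy1+ cells (vertical axis, mean of 4 pairs on the log2(FPKM + 1) scale) against the mean level of each gene over the 8 libraries (horizontal axis, log2(mean FPKM + 1)). Red and dark blue points are the 40 higher and 54 lower genes called over all 14764 genes, light blue points are the genes called with protein-coding genes alone, and grey points are the rest. Thy1 lies at -2.62 and Gzme at 2.78.

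Thy1 itself, on chromosome 9, checked the sort. Thy1 had 46.2, 52.8, 39.5 and 58.8 FPKM in Thy1- libraries, against 286, 447, 244 and 278 FPKM in Thy1+ libraries, with pairs always in the order control day 4, control day 8, Dppa2/4 day 8 and Dppa2/4 day 14. Every Thy1- library lay below every Thy1+ library, and the fitted difference was -2.62 on the log2 scale (SE 0.14, limma adjusted p = 0.0155). The message was thus lower and not absent in the cells sorted as Thy1-. The enzymes that can make the SSEA1 epitope did not pass the test. Fut4, an alpha-1,3-fucosyltransferase, had 0.496, 0.479, 1.54 and 1.25 FPKM in Thy1- libraries, against 0.578, 0.356, 1.14 and 1.05 FPKM in Thy1+ libraries (log2 difference 0.11, SE 0.11, adjusted p = 0.575). For Fut9, a related enzyme known to build SSEA1 in the mouse embryo, the values were 0.229, 0.281, 1.3 and 1.26 FPKM in Thy1- libraries, against 0.169, 0.204, 1.02 and 1.13 FPKM in Thy1+ libraries (log2 difference 0.11, SE 0.10, adjusted p = 0.535). Both stayed below 1 FPKM in the control libraries of either gate and lay just above 1 FPKM in the Dppa2/4 libraries of both.

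Besides Thy1 and a short RNA gene, the 10 lowest genes were Defb1, Cpxm2, Anxa8, Epas1, Fbln5, Lmo7, Itgbl1 and Serping1. Defb1, the epithelial antimicrobial peptide beta-defensin 1, had 1.75, 5.78, 6.49 and 9.5 FPKM in Thy1- libraries, against 15.8, 29.6, 25.5 and 33.1 FPKM in Thy1+ libraries, and the groups did not overlap (log2 difference -2.08, SE 0.17, adjusted p = 0.0332). Cpxm2, of the carboxypeptidase X family, had 3.3, 4.98, 3.27 and 3.87 FPKM in Thy1- libraries, against 9.61, 23.6, 9.78 and 19 FPKM in Thy1+ libraries, again without overlap (log2 difference -1.68, SE 0.17, adjusted p = 0.0434). Anxa8, a calcium-dependent phospholipid-binding annexin, had 53.3, 87, 76 and 153 FPKM in Thy1- libraries, against 185, 296, 223 and 307 FPKM in Thy1+ libraries (log2 difference -1.52, SE 0.15, adjusted p = 0.0408), and its highest Thy1- value lay below its lowest Thy1+ value. Lmo7, a LIM-domain protein of adherens junctions and the actin cytoskeleton, had 23, 25.1, 25.4 and 19.8 FPKM in Thy1- libraries, against 53.4, 57.1, 69.3 and 57 FPKM in Thy1+ libraries (log2 difference -1.31, SE 0.09, adjusted p = 0.0185). Itgbl1, an integrin beta-like secreted protein, had 13.1, 17, 16 and 21.1 FPKM in Thy1- libraries, against 35.1, 52.6, 40.5 and 43.4 FPKM in Thy1+ libraries (log2 difference -1.31, SE 0.11, adjusted p = 0.0333). Neither Lmo7 nor Itgbl1 overlapped between the gates, and Lmo7 moved little between arms and days. In Fbln5, a fibulin of elastic fibres, Epas1, the hypoxia-inducible factor HIF-2 alpha, and Serping1, the inhibitor of complement C1, the groups overlapped, and the arms and days differed in level, but each pair was lower in Thy1- cells. Fbln5 had 43.5, 37.9, 28.5 and 11.3 FPKM in Thy1- libraries, against 111, 110.04, 63.7 and 39.1 FPKM in Thy1+ libraries (log2 difference -1.42, SE 0.11, adjusted p = 0.0306). Epas1 had 2.47, 3.98, 8.16 and 16.4 FPKM in Thy1- libraries, against 11.2, 14, 18.5 and 38.7 FPKM in Thy1+ libraries (log2 difference -1.42, SE 0.15, adjusted p = 0.0434). Serping1 had 19.3, 28.3, 11.2 and 14.3 FPKM in Thy1- libraries, against 54.9, 91.8, 20.6 and 35.2 FPKM in Thy1+ libraries (log2 difference -1.3, SE 0.15, adjusted p = 0.0483). Fbln5 was lowest at Dppa2/4 day 14 in both gates and Epas1 highest there in both. The proteases that Serping1 inhibits, named here after their values were seen, were lower too. C1s fell to 53, 75, 14.6 and 14.6 FPKM in Thy1- cells, against 111, 144, 36.3 and 36.2 FPKM in Thy1+ cells (log2 difference -1.12, SE 0.09, adjusted p = 0.0306), and C1ra to 19.8, 30.5, 5.77 and 4.71 FPKM against 46.4, 72.5, 13.4 and 13.5 FPKM (log2 difference -1.21, SE 0.08, adjusted p = 0.0185).

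The gene lists added further lower genes. Igfbp3, which binds insulin-like growth factors in the medium, had 174, 394, 104 and 151 FPKM in Thy1- libraries, against 519.8, 879, 253 and 326 FPKM in Thy1+ libraries (log2 difference -1.28, SE 0.10, adjusted p = 0.0306). Acta2, smooth muscle actin, had 351, 461, 167 and 259 FPKM in Thy1- libraries, against 667, 877, 252 and 404 FPKM in Thy1+ libraries (log2 difference -0.77, SE 0.09, adjusted p = 0.0483). In both the arms differed in level and the gates overlapped, but the Thy1- library was the lower of each pair. Tgfb3, a TGF-beta ligand, had 17.8, 18.2, 18.8 and 19.7 FPKM in Thy1- libraries, against 28.5, 36.8, 31 and 35.1 FPKM in Thy1+ libraries and no overlap (log2 difference -0.78, SE 0.08, adjusted p = 0.0453). Runx2, a transcription factor of the osteoblast lineage, had 6.84, 5.96, 6.91 and 8.65 FPKM in Thy1- libraries, against 12.1, 13.7, 11.9 and 17.4 FPKM in Thy1+ libraries and no overlap (log2 difference -0.86, SE 0.10, adjusted p = 0.0483). Adamts5, a protease that cuts aggrecan, had 12.7, 9.66, 4.8 and 10.6 FPKM in Thy1- libraries, against 19.5, 14.7, 8.3 and 17.6 FPKM in Thy1+ libraries (log2 difference -0.63, SE 0.07, adjusted p = 0.0483). Across these genes Tgfb3 was the steadiest, with all Thy1- libraries within 17.8 to 19.7 FPKM.

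**Figure D2:**
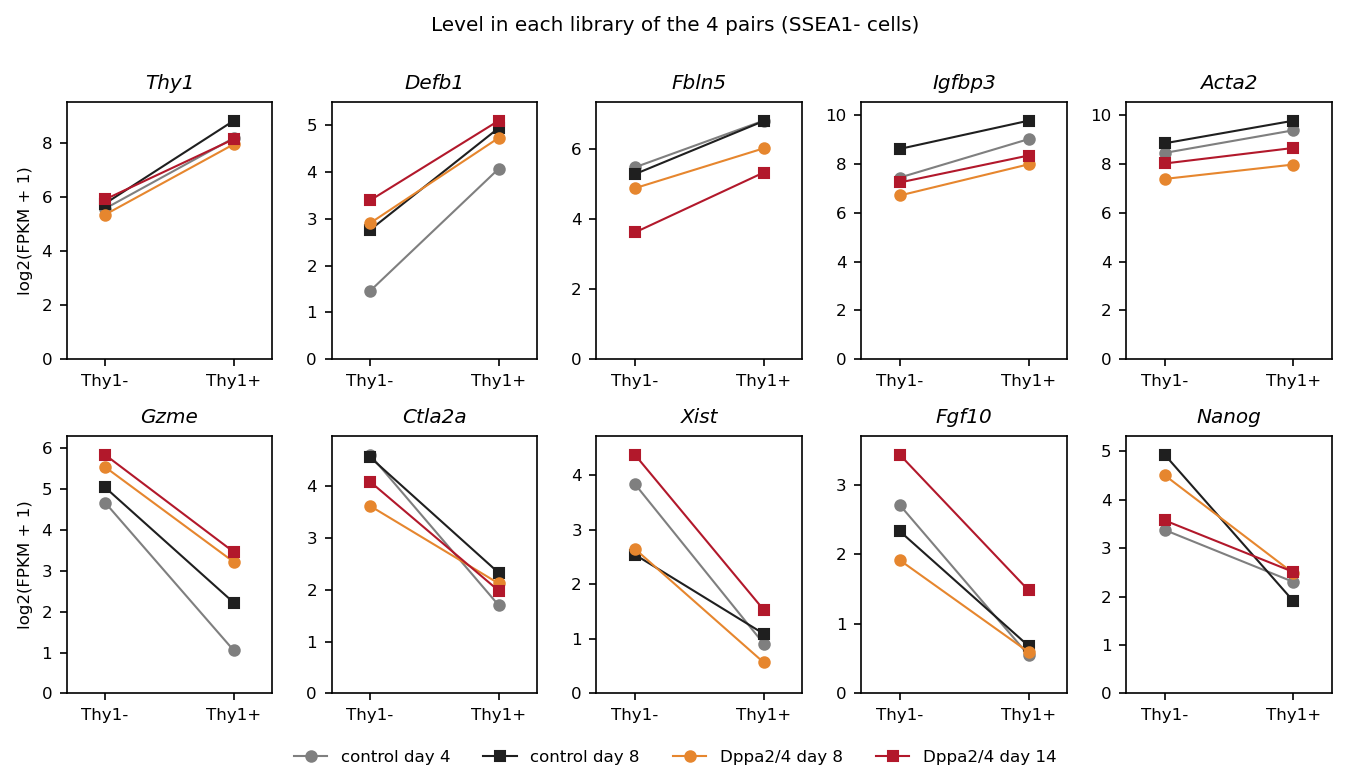
Level of 10 named genes in each library, as log2(FPKM + 1) on the vertical axis, with Thy1- at left and Thy1+ at right in each panel and 1 line per pair. The 5 genes of the upper row were lower in Thy1- cells in every pair, and the 5 of the lower row were higher in every pair; Nanog did not pass the test over all genes (adjusted p = 0.0849).

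Among the genes called over all genes, the highest protein-coding genes in Thy1- cells were Gzme and Ctla2a. Gzme, which encodes granzyme E, a serine protease known from cytotoxic lymphocytes, had 24.4, 31.9, 45.5 and 56.2 FPKM in Thy1- libraries, against 1.07, 3.66, 8.3 and 10.03 FPKM in Thy1+ libraries (log2 difference 2.78, SE 0.24, adjusted p = 0.0355). Ctla2a, a cysteine protease inhibitor related to the cathepsin propeptide, had 23.3, 22.6, 11.3 and 16 FPKM in Thy1- libraries, against 2.25, 4.02, 3.35 and 2.95 FPKM in Thy1+ libraries (log2 difference 2.18, SE 0.23, adjusted p = 0.0439). In both the groups did not overlap, and Gzme had its highest value at Dppa2/4 day 14 in either gate. Fgf10, a ligand of the epithelial receptor Fgfr2b, had 5.51, 4.02, 2.77 and 9.75 FPKM in Thy1- libraries, against 0.464, 0.605, 0.511 and 1.79 FPKM in Thy1+ libraries (log2 difference 1.77, SE 0.16, adjusted p = 0.0408). Ccl11, the eosinophil chemokine eotaxin, had 13.4, 13, 14.9 and 11.2 FPKM in Thy1- libraries, against 4.73, 7.31, 6.01 and 4.77 FPKM in Thy1+ libraries (log2 difference 1.09, SE 0.12, adjusted p = 0.0453). Neither overlapped between the gates. Gzme, Ctla2a and the complement genes have close paralogs in the mouse genome, and how the authors' counting shared reads among them is not given in the sources used here, so their levels are uncertain to that extent.

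The upstream sequences of Gzme and of Cpxm2 are shown because these were the highest and the lowest called protein-coding genes with a single promoter entry in RefSeq (GRCm38.p6, the build named mm10). Each is the 250 bases before the annotated start, 5′ to 3′ on the gene's strand, at chr14:56120626-56120875 on the minus strand for Gzme and at chr7:132154742-132154991 on the minus strand for Cpxm2. Capitals mark matches on either strand to the GC box GGGCGG, the TATA box TATAAA or the AP-1 site TGACTCA, 3 sequences that do not overlap each other here.
Gzme: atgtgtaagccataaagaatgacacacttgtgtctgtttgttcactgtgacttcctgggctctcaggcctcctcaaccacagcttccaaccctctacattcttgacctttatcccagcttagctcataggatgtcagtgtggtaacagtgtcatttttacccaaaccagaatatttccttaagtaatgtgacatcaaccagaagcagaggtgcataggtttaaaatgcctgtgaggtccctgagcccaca
Cpxm2: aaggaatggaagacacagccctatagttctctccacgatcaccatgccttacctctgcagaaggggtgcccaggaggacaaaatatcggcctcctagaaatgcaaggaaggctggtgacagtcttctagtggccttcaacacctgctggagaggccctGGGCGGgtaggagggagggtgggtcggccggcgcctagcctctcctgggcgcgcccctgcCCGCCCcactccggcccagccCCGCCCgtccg
Gzme held none of the 3 motifs, and Cpxm2 held 3 GC boxes, which begin at bases -92, -32 and -11 from the start. Over all 32851 promoters of that table, 32.7% held a GC box, 12.4% a TATA box and 4.46% an AP-1 site in the same window. Of the 20 protein-coding genes higher in Thy1- cells, 16 had an entry, and 9 of them (56.2%) held a GC box, 3 a TATA box and 1 an AP-1 site. Of the 48 lower ones, 23 had an entry, and 14 (60.9%) held a GC box, 2 a TATA box and 0 an AP-1 site. Among 9065 tested protein-coding genes with an entry the GC box share was 65.6%, the TATA box share 7.88% and the AP-1 site share 4.09%. Here and for the called genes a gene was counted when any of its promoters held the motif. The shares over all 32851 count single promoters.

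The list of fibroblast surface and identity genes did not move as 1 group. Of its 28 genes 27 were tested: over all genes 2 were lower (Thy1 and Fbln5) and 0 higher, and with protein-coding genes alone 9 were lower and 4 higher. Thy1 is the marker of the sort, so its lower level says nothing of the other members. By direction alone 13 were lower and 5 higher in 4 of 4 pairs, where 22.6% of all genes were lower and 14.2% higher in 4 of 4. These shares are the background for the lists below too. In the protein-coding fit it is 5.72% lower and 2.54% higher. The median difference of the list was -0.23 on the log2 scale, beside -0.04 over all genes tested. Cd34, a sialomucin of mesenchymal and haematopoietic progenitors, had 113, 210.4, 159 and 86.5 FPKM in Thy1- libraries, against 243, 382, 356 and 307 FPKM in Thy1+ libraries, with no overlap (log2 difference -1.23, SE 0.17, adjusted p = 0.0549; adjusted p = 0.00988 with protein-coding genes alone). Pdgfrb, the receptor of PDGF-BB, fell in the protein-coding fit to 24.4, 31.1, 18.8 and 12.7 FPKM in Thy1- cells, against 34.1, 56.6, 25.9 and 25.5 FPKM in Thy1+ cells (adjusted p = 0.0219 with protein-coding genes alone). Its sister receptor Pdgfra went the other way and had 42.2, 28.5, 11.9 and 17.4 FPKM in Thy1- libraries, against 24.1, 20.3, 4.59 and 7.84 FPKM in Thy1+ libraries (log2 difference 0.88, SE 0.14, adjusted p = 0.0698; adjusted p = 0.0164 with protein-coding genes alone). Lum and Dcn, the small leucine-rich proteoglycans lumican and decorin, were also higher in Thy1- cells with protein-coding genes alone. Lum had 136, 100.3, 27.7 and 15.3 FPKM in Thy1- libraries, against 59.5, 68.1, 13.1 and 6.61 FPKM in Thy1+ libraries (adjusted p = 0.0103 with protein-coding genes alone). Dcn had 102, 101, 64.4 and 46.1 FPKM in Thy1- libraries, against 52.8, 82.4, 50.4 and 21.8 FPKM in Thy1+ libraries (adjusted p = 0.0391 with protein-coding genes alone). In Pdgfra, Lum and Dcn each Thy1- library exceeded its own Thy1+ partner, and in both gates the Dppa2/4 libraries were lower than the control libraries.

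In the other mesenchymal lists more genes were lower than higher in 4 of 4 pairs. Of 21 collagens tested, 0 were called over all genes and 7 were lower with protein-coding genes alone; 10 were lower and 0 higher in 4 of 4 pairs (median -0.25). Col1a1, of the main fibrillar collagen, had 433, 405, 178 and 133 FPKM in Thy1- libraries, against 566, 724, 269 and 224 FPKM in Thy1+ libraries (log2 difference -0.64, SE 0.10, adjusted p = 0.0636; adjusted p = 0.0163 with protein-coding genes alone). Of 32 other matrix genes, 12 were lower and 4 higher in 4 of 4 pairs (median -0.18, and -0.01 at control day 4), 1 (Adamts5) was lower over all genes, and 7 were lower and 2 (Lum and Dcn) higher with protein-coding genes alone. Prelp, a leucine-rich proteoglycan of connective tissue, showed the widest gap of that list and had 36, 63.7, 25.5 and 28.4 FPKM in Thy1- libraries, against 89.8, 184, 85.3 and 212 FPKM in Thy1+ libraries without overlap (log2 difference -1.84, SE 0.27, adjusted p = 0.0626; adjusted p = 0.0107 with protein-coding genes alone). Of 22 mesenchymal transcription factors, 11 were lower and 4 higher in 4 of 4 pairs (median -0.21), 1 (Runx2) was lower over all genes, and 7 were lower and 2 (Foxd1 and Tbx3) higher with protein-coding genes alone. Prrx1, a homeobox factor of limb mesenchyme, had 117, 85.6, 70.8 and 74 FPKM in Thy1- libraries, against 156, 130.2, 116 and 114 FPKM in Thy1+ libraries (log2 difference -0.58, SE 0.07, adjusted p = 0.053; adjusted p = 0.0144 with protein-coding genes alone). Of 22 smooth muscle and TGF-beta target genes, Acta2 and Tgfb3 were lower over all genes, and 10 were lower and 2 higher in 4 of 4 pairs (median -0.18).

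**Figure D3:**
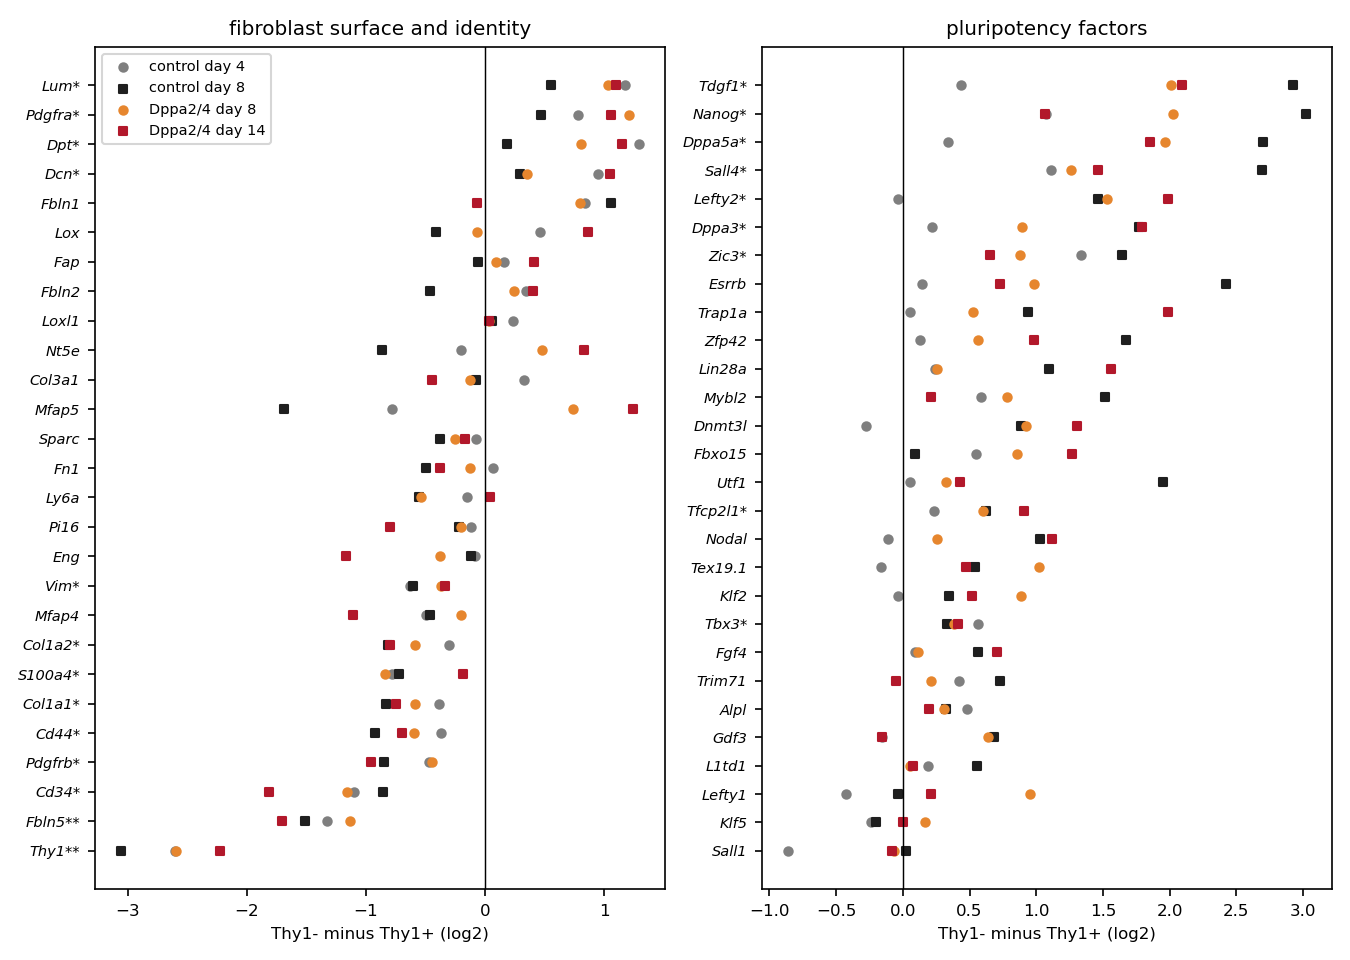
Difference between Thy1- and Thy1+ cells in each of the 4 pairs (horizontal axis, log2 scale; 1 row per gene, 1 mark per pair) for the tested members of the fibroblast list, left, and of the pluripotency list, right. Genes with ** passed over all genes and those with * passed with protein-coding genes alone. In the fibroblast list Lum, Pdgfra, Dpt, Dcn and Loxl1 lay above 0 in every pair while Thy1, Fbln5, Cd34 and 10 others lay below, and in the pluripotency list 18 of 28 lay above 0 in every pair.

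The pluripotency list had the highest median of the lists with at least 10 members tested (0.69), although none of its 28 tested genes passed over all genes. With protein-coding genes alone 9 were higher and 0 lower, and 18 were higher and 0 lower in 4 of 4 pairs. Nanog, the homeobox factor of naive pluripotency, had 9.38, 29.4, 21.7 and 10.9 FPKM in Thy1- libraries, against 3.93, 2.75, 4.58 and 4.69 FPKM in Thy1+ libraries, with no overlap (log2 difference 1.8, SE 0.36, adjusted p = 0.0849; adjusted p = 0.022 with protein-coding genes alone). Sall4, a zinc finger partner of that network, had 1.19, 11.6, 4.69 and 7.03 FPKM in Thy1- libraries, against 0.016, 0.947, 1.37 and 1.91 FPKM in Thy1+ libraries (log2 difference 1.63, SE 0.29, adjusted p = 0.0739; adjusted p = 0.0167 with protein-coding genes alone). Tdgf1, the Nodal co-receptor Cripto, had 0.698, 16.4, 15 and 38 FPKM in Thy1- libraries, against 0.258, 1.3, 2.96 and 8.15 FPKM in Thy1+ libraries (log2 difference 1.86, SE 0.40, adjusted p = 0.0899; adjusted p = 0.0256 with protein-coding genes alone). Sall4 and Tdgf1 overlapped between the gates and were lowest at control day 4 in both, but every pair had the higher value in Thy1- cells. Dppa5a, an RNA-binding protein of pluripotent cells, had 0.827, 8.54, 11.6 and 127 FPKM in Thy1- libraries, against 0.446, 0.468, 2.23 and 34.6 FPKM in Thy1+ libraries (adjusted p = 0.0276 with protein-coding genes alone), with both gates far higher at Dppa2/4 day 14 than elsewhere. Esrrb and Zfp42 (Rex1), 2 later markers, were higher in 4 of 4 pairs and did not pass either fit (adjusted p = 0.171 and 0.147 over all genes).

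Of 27 epithelial genes tested, 0 were called over all genes, 3 were higher with protein-coding genes alone, and 12 were higher and 0 lower in 4 of 4 pairs. Their median was 0.34, and by pair it was 0.02, 0.56, 0.21 and 0.64, near 0 at control day 4. Cdh1, E-cadherin, had 23.9, 62, 19.96 and 42.6 FPKM in Thy1- libraries, against 14.8, 24.8, 10.03 and 10.9 FPKM in Thy1+ libraries (log2 difference 1.19, SE 0.21, adjusted p = 0.0739; adjusted p = 0.0183 with protein-coding genes alone). Epcam, an epithelial adhesion molecule, had 1.93, 15.9, 34.8 and 68.9 FPKM in Thy1- libraries, against 0.969, 3.14, 16 and 19.9 FPKM in Thy1+ libraries (log2 difference 1.35, SE 0.26, adjusted p = 0.0809; adjusted p = 0.0214 with protein-coding genes alone). Pkp1, the desmosomal protein plakophilin 1, had 5.57, 6.76, 2.58 and 10.7 FPKM in Thy1- libraries, against 2.02, 2.94, 1.98 and 6.51 FPKM in Thy1+ libraries (adjusted p = 0.0327 with protein-coding genes alone). In all 3 each Thy1- library exceeded its partner, and Epcam was higher at the later days in both gates.

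The delivered factors did not pass the test. Pou5f1 had 335, 382, 285 and 78.6 FPKM in Thy1- libraries, against 391, 409, 276 and 78.3 FPKM in Thy1+ libraries (log2 difference -0.07, SE 0.07, adjusted p = 0.603), with each pair close and both gates lowest at Dppa2/4 day 14. Sox2 had 4.75, 13.6, 5.2 and 6.27 FPKM in Thy1- libraries, against 7.08, 12.1, 4 and 3.3 FPKM in Thy1+ libraries (log2 difference 0.18, SE 0.21, adjusted p = 0.613). Klf4 had 26.1, 32.6, 21.2 and 9.39 FPKM in Thy1- libraries, against 31.9, 40.4, 23.3 and 9.21 FPKM in Thy1+ libraries (log2 difference -0.17, SE 0.08, adjusted p = 0.273). Myc was the lower in Thy1- cells of every pair but did not pass, and it had 84.1, 114, 75.5 and 23.4 FPKM in Thy1- libraries, against 107, 132, 78.9 and 35.2 FPKM in Thy1+ libraries (log2 difference -0.3, SE 0.10, adjusted p = 0.159). Gene-level FPKM does not separate the cassette from the endogenous genes. Dppa2 and Dppa4, which bind DNA in pluripotent cells, were high only in their own arm. Dppa2 had 0.256, 0.783, 182 and 137 FPKM in Thy1- libraries, against 0.319, 0.149, 175 and 171 FPKM in Thy1+ libraries (log2 difference 0.07, SE 0.17, adjusted p = 0.809). Dppa4 had 0.497, 0.584, 189 and 172 FPKM in Thy1- libraries, against 0.141, 0.259, 201 and 232 FPKM in Thy1+ libraries (log2 difference 0.05, SE 0.16, adjusted p = 0.872). Trp53 and the cell cycle inhibitors of the Cdkn2a locus, known barriers to reprogramming, did not pass either. Trp53 had 103, 132, 95.7 and 37.7 FPKM in Thy1- libraries, against 91.9, 94.3, 87.7 and 44.2 FPKM in Thy1+ libraries (log2 difference 0.14, SE 0.12, adjusted p = 0.519). Cdkn2a had 23.3, 63.1, 29.1 and 66.3 FPKM in Thy1- libraries, against 34.7, 71.2, 25.6 and 85.8 FPKM in Thy1+ libraries (log2 difference -0.23, SE 0.13, adjusted p = 0.338), and Cdkn2b had 17.6, 24.2, 38.3 and 109 FPKM in Thy1- libraries, against 30.3, 37.8, 47.9 and 91.1 FPKM in Thy1+ libraries (log2 difference -0.36, SE 0.18, adjusted p = 0.277). In these 3 genes the pairs did not keep 1 direction.

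Of the growth lists, ribosome biogenesis had 14 of 24 genes higher in 4 of 4 pairs (median 0.27) and oxidative phosphorylation 12 of 21 (median 0.20). Among all genes tested 14.2% were higher and 22.6% lower in 4 of 4 pairs. Each of these lists had 3 genes higher with protein-coding genes alone and 0 over all genes. In oxidative phosphorylation 1 gene, Cox4i2, was lower in 4 of 4 pairs and with protein-coding genes alone. DNA replication had 11 of 31 higher in 4 of 4 pairs and a median of 0.31, but its median by pair was 0.39, 0.73, 0.19 and -0.24, so that Dppa2/4 day 14 went the other way. Mitosis behaved alike, with medians of 0.10, 0.74, 0.07 and -0.14, and its median over the members was 0.18 with all pairs but -0.01 without control day 8. Mcm5, a subunit of the replicative helicase, had 51.1, 57.2, 44.3 and 13.5 FPKM in Thy1- libraries, against 37, 22.6, 34.7 and 21.4 FPKM in Thy1+ libraries (log2 difference 0.37, SE 0.30, adjusted p = 0.487). In that gene Dppa2/4 day 14 was the single pair with the lower value in Thy1- cells. Genes of the interferon response were the list with the lowest median (-0.33), with 14 of 24 lower and 0 higher in 4 of 4 pairs and 6 lower with protein-coding genes alone. Isg15, a ubiquitin-like protein induced by interferon, had 2.61, 1.95, 51.1 and 18.7 FPKM in Thy1- libraries, against 3.49, 3.7, 70.3 and 36.4 FPKM in Thy1+ libraries (log2 difference -0.59, SE 0.12, adjusted p = 0.0885; adjusted p = 0.0328 with protein-coding genes alone), with the Dppa2/4 arm far above the control arm in both gates. Glycolysis and hypoxia targets had 10 of 27 lower and 0 higher in 4 of 4 pairs (median -0.16), with Epas1 the 1 called gene. Of the immediate early and AP-1 genes 11 of 25 were lower and 3 higher in 4 of 4 pairs, and Fos, Junb and Dusp1 were lower with protein-coding genes alone (adjusted p = 0.042, 0.0431 and 0.0255).

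**Figure D4:**
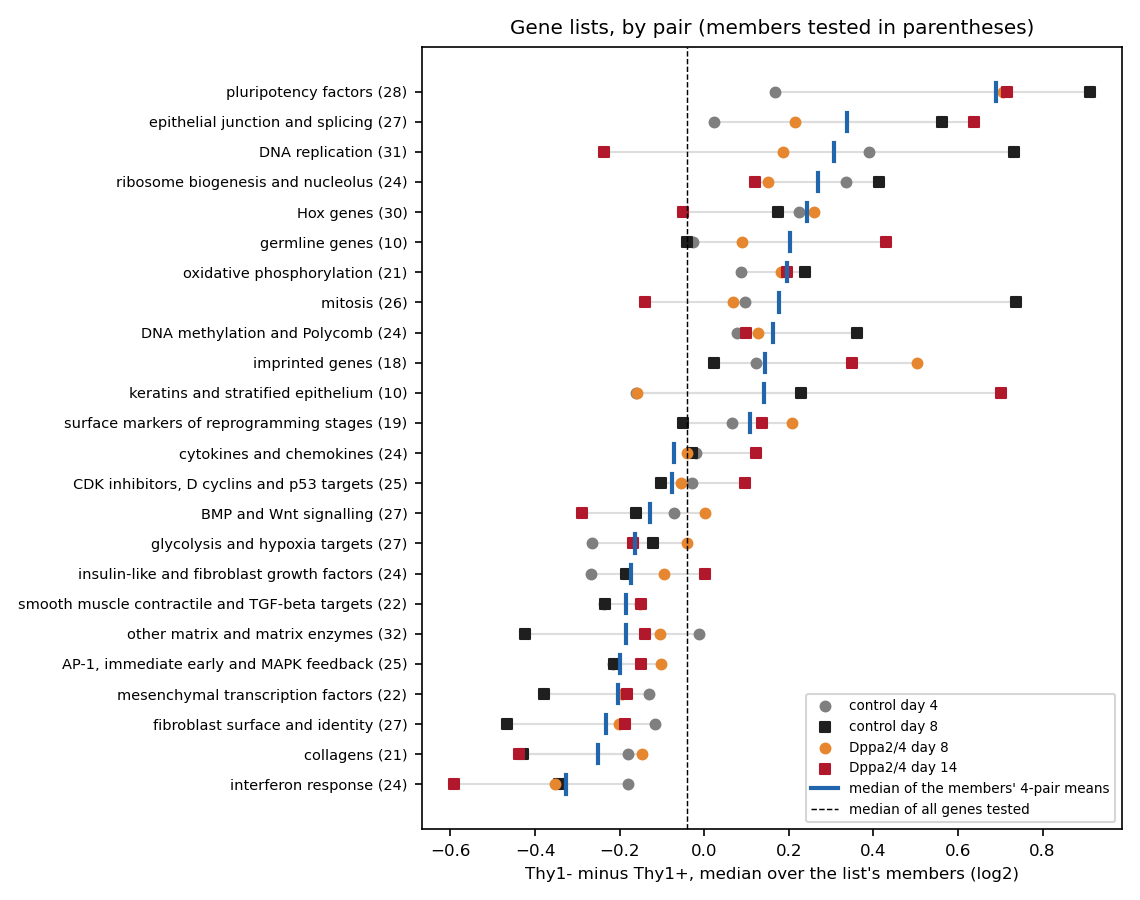
Median Thy1- minus Thy1+ difference (horizontal axis, log2 scale) over the tested members of each gene list with at least 10 of them, 1 row per list, with 1 mark per pair, a blue bar for the median of the members' 4-pair means and a dashed line at the median of all genes tested (-0.04). Pluripotency factors lie highest (0.69) and interferon response genes lowest (-0.33), and the pairs of DNA replication range between -0.24 and 0.73.

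Secreted signals changed in both directions. The growth factor list had 1 gene higher (Fgf10) and 1 lower (Igfbp3) over all genes, and 5 higher and 5 lower of 24 with protein-coding genes alone. In that fit 2.54% of all protein-coding genes were higher and 5.72% lower. Igf2, an imprinted fetal growth factor, had 193, 155, 94.9 and 153 FPKM in Thy1- libraries, against 71.6, 105, 30.9 and 46.5 FPKM in Thy1+ libraries (log2 difference 1.31, SE 0.21, adjusted p = 0.0696; adjusted p = 0.0132 with protein-coding genes alone). Peg10, an imprinted gene derived from a retrotransposon, had 43.5, 134, 16.5 and 14.1 FPKM in Thy1- libraries, against 27.5, 27.7, 4.87 and 3.2 FPKM in Thy1+ libraries (log2 difference 1.58, SE 0.26, adjusted p = 0.0722; adjusted p = 0.0151 with protein-coding genes alone). Both were the higher in Thy1- cells of every pair. Among BMP and Wnt genes 0 passed over all genes, and 3 were higher and 3 lower of 27 with protein-coding genes alone. The Wnt antagonists Sfrp1 and Sfrp2 were the lowest of them. Sfrp1 had 71.8, 70.02, 84.7 and 54.6 FPKM in Thy1- libraries, against 181, 235, 137 and 119 FPKM in Thy1+ libraries, without overlap (log2 difference -1.21, SE 0.17, adjusted p = 0.0604; adjusted p = 0.0109 with protein-coding genes alone). Sfrp2 had 6.22, 4.83, 12.3 and 10.4 FPKM in Thy1- libraries, against 44.5, 22.2, 17 and 26.1 FPKM in Thy1+ libraries, also without overlap (log2 difference -1.58, SE 0.37, adjusted p = 0.0958; adjusted p = 0.0307 with protein-coding genes alone). Of the cytokines and chemokines Ccl11 was the 1 gene called over all genes, and 4 of 24 were higher and 3 lower with protein-coding genes alone.

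The remaining lists had 0 calls over all genes apart from Gzme and Thy1, and few in the protein-coding fit. In that fit 2.54% of all protein-coding genes were higher and 5.72% lower, so single calls in a list are near that share. Among all genes tested 14.2% were higher and 22.6% lower in 4 of 4 pairs. Of 19 surface markers of reprogramming stages 4 were higher and 3 lower, and the lower ones include Thy1, the marker of the sort. Kit, the stem cell factor receptor, had 1.04, 6.96, 3.36 and 2.67 FPKM in Thy1- libraries, against 0.404, 3.23, 1.47 and 0.866 FPKM in Thy1+ libraries (log2 difference 0.81, SE 0.11, adjusted p = 0.0598; adjusted p = 0.0142 with protein-coding genes alone), and Itgb3, an integrin subunit, had 4.99, 4.41, 10.5 and 11.4 FPKM in Thy1- libraries, against 8.88, 6.83, 19.3 and 18.1 FPKM in Thy1+ libraries (log2 difference -0.67, SE 0.09, adjusted p = 0.053; adjusted p = 0.0142 with protein-coding genes alone). Kit was the higher and Itgb3 the lower in Thy1- cells of every pair. Granzymes had 2 of 4 tested genes higher, Gzme and Gzmd. Of 30 Hox genes 10 were higher and 5 lower in 4 of 4 pairs (median 0.24, but -0.03 among Hox genes with a mean of at least 5 FPKM), with 2 higher and 1 lower in the protein-coding fit. Imprinted genes had 3 higher and 1 lower of 14, DNA methylation and Polycomb genes 2 higher and 1 lower of 24, CDK inhibitors, cyclins and p53 targets 1 higher and 1 lower of 25, keratins and stratified epithelium 1 higher and 0 lower of 10, and germline genes 0 of 10 in either direction.

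Calls outside protein-coding genes included pseudogenes, antisense genes and Xist. Of 535 pseudogenes tested 11 were higher (2.06%) and 0 lower, and of 287 antisense genes 0 were higher and 4 lower (1.39%), where 20 of 12592 protein-coding genes were higher (0.159%) and 48 lower (0.381%). No test of these shares was made. Among the antisense calls, Gm16567 lies within C1s on the opposite strand. It had 55.8, 90.6, 14.7 and 20 FPKM in Thy1- libraries, against 109, 170, 31.4 and 42.2 FPKM in Thy1+ libraries. Whether reads of C1s were counted for it was not tested, and the use of strand is not given in the sources used here. Eif3s6-ps2 had 41.2, 19.7, 26 and 59.1 FPKM in Thy1- libraries, against 3.87, 3.38, 0.806 and 6.71 FPKM in Thy1+ libraries (log2 difference 3.05, SE 0.27, adjusted p = 0.0376). Gm10260 had 29.2, 28.1, 19.6 and 82.2 FPKM in Thy1- libraries, against 3.25, 3.6, 2.89 and 17.3 FPKM in Thy1+ libraries (log2 difference 2.52, SE 0.13, adjusted p = 0.0155). Rps2-ps13 had 10.7, 15.8, 8.66 and 37.2 FPKM in Thy1- libraries, against 1.09, 1.58, 1.46 and 6.39 FPKM in Thy1+ libraries (log2 difference 2.38, SE 0.14, adjusted p = 0.0155), and Gm13394 had 10.4, 11.6, 8.02 and 52.5 FPKM in Thy1- libraries, against 0.838, 1.26, 1.47 and 14.8 FPKM in Thy1+ libraries (log2 difference 2.18, SE 0.18, adjusted p = 0.0333). The first 3 did not overlap between the gates, and Gm13394 overlapped through the high Thy1+ library of Dppa2/4 day 14. Reads of processed pseudogenes are hard to separate from those of the parent gene, so these levels are uncertain. Xist, the noncoding RNA of X inactivation, had 13.3, 4.84, 5.28 and 19.8 FPKM in Thy1- libraries, against 0.885, 1.14, 0.484 and 1.9 FPKM in Thy1+ libraries, without overlap (log2 difference 2.32, SE 0.27, adjusted p = 0.0483). Of 4 Y-linked genes, looked at after that value was seen, none passed. Ddx3y had 14.8, 13, 13.8 and 21.7 FPKM in Thy1- libraries, against 18, 14.7, 15.7 and 22.1 FPKM in Thy1+ libraries (log2 difference -0.16, SE 0.08, adjusted p = 0.256). Ddx3y, Kdm5d and Uty were the lower in Thy1- cells of every pair. Eif2s3y had 35.5, 28.7, 38.6 and 63.5 FPKM in Thy1- libraries, against 42.1, 48.5, 39.5 and 38 FPKM in Thy1+ libraries (log2 difference -0.07, SE 0.24, adjusted p = 0.878), and it was the higher in Thy1- cells at Dppa2/4 day 14 alone. Whether the gates differ in the embryos they stem from was not tested.

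Short RNA genes make up part of the calls. The 4 among the 10 highest and 10 lowest genes were listed at 0 in all libraries of 1 gate, and no fold is given for them. A U6 gene on chromosome 11 had 21.6, 18.3, 19 and 16.4 FPKM in Thy1- libraries, against 0 FPKM in all 4 Thy1+ libraries (adjusted p = 0.00101), and another on chromosome 1 had 0 FPKM in all 4 Thy1- libraries, against 23, 10.1, 19.2 and 11.4 FPKM in Thy1+ libraries (adjusted p = 0.0155). SNORA61, a small nucleolar RNA, had 7.04, 5.96, 6.18 and 10.7 FPKM in Thy1- libraries, against 0 FPKM in all 4 Thy1+ libraries (adjusted p = 0.0155), and AC124394.1, a predicted microRNA gene, had 7.04, 5.96, 12.4 and 16 FPKM in Thy1- libraries, against 0 FPKM in all 4 Thy1+ libraries (adjusted p = 0.0259). The control day 4 value of Thy1- cells over the control day 8 value was 1.18 in the higher U6, in SNORA61 and in AC124394.1. The level of U6 differed from that of SNORA61 and AC124394.1, which had equal values in these libraries. The implied depth of control day 8 over day 4 in that gate was 1.2. For Dppa2/4 day 8 over day 14 in the same gate the ratio was 1.16, 0.579 and 0.772 in these genes (depth ratio 1.15). In Thy1+ cells the lower U6 had 2.29 for control day 4 over day 8 and 1.68 for Dppa2/4 day 8 over day 14. The short RNA genes of the arm comparison below with values there had 1.14 and 0.841 (depth ratios 1.15 and 0.871). Whether the values stand for a few fragments per library was not tested. Most of these RNAs lack a polyA tail.

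The difference between the gates was then compared between the arms, as Dppa2/4 minus control. Of 14764 genes 4 had a higher difference (0.0271%) and 6 a lower one (0.0406%) at an adjusted p under 0.05 (limma), and 765 had an unadjusted p under 0.05. Of these 10, 8 were short RNA genes, 2 had no GENCODE entry and 0 were protein-coding. Gm17567 had 185, 157, 0 and 0 FPKM in Thy1- libraries, against 0 FPKM in all 4 Thy1+ libraries (adjusted p = 0.00932). Y_RNA had 16.5, 14, 0 and 0 FPKM in Thy1- libraries, against 0, 0, 14.8 and 17.6 FPKM in Thy1+ libraries (adjusted p = 0.00932), and AC093451.1 had 0 FPKM in all 4 Thy1- libraries, against 74.8, 65.4, 0 and 0 FPKM in Thy1+ libraries (adjusted p = 0.0122). Each of the 10 was at 0 in at least 4 of the 8 libraries. The control day 4 over day 8 ratio in Thy1- cells was again 1.18 in the 5 of them with values there. With 1 pair left out the counts ran between 0 and 9 higher and between 0 and 11 lower. With protein-coding genes alone, an alternative chosen after seeing the data, 3 had a higher and 0 a lower difference. Over all genes no gene on the lists passed, which does not show that the arms are alike with 2 pairs each.

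Day 2 gave a different picture from days 4 to 14. Over 15348 genes tested with all 6 pairs, 1569 had a higher difference between the gates at days 4 to 14 than at day 2 (10.2%), and 3259 a lower one (21.2%; limma, adjusted p under 0.05). Without the Dppa2/4 day 2 pair these counts were 532 and 1706, and without the control day 2 pair 2354 and 3212. In the Dppa2/4 day 2 pair Dppa2 had 81.8 FPKM in the Thy1- and 599 FPKM in the Thy1+ library, and Dppa4 had 89.9 and 827 FPKM. The libraries of that pair thus differed in the level of both genes as well as in gate, which cannot be told apart. After quantile normalization they were 2181 and 2273. Leaving out control day 4, control day 8 or Dppa2/4 day 8 gave 889 and 2075, 796 and 1887, and 812 and 2074. Matrix genes led the lower differences: 28 of 32 matrix genes, 21 of 27 fibroblast genes and 17 of 22 collagens had a lower difference and 0 a higher one. Their median differences were -0.18, -0.23 and -0.21 at days 4 to 14, but 2.38, 2.26 and 2.29 at day 2, where Thy1- cells were the higher; the medians of all genes were -0.04 and 0.04. Col1a1 had 2431 and 2099 FPKM in the Thy1- libraries of day 2 (control, then Dppa2/4), against 560 and 84.6 FPKM in the Thy1+ libraries. Fap, a serine protease of activated fibroblasts, had 27.4 and 26.8 FPKM in these Thy1- libraries, against 0.932 and 1.48 FPKM in the Thy1+ ones. At days 4 to 14 it had 9.41, 8.37, 7.61 and 7.82 FPKM in Thy1- libraries, against 8.31, 8.74, 7.07 and 5.63 FPKM in Thy1+ libraries, with overlap. Proliferation lists went the other way, with a higher difference in 23 of 26 mitosis, 21 of 31 replication and 21 of 24 ribosome biogenesis genes and a lower one in 0. Their day 2 medians were -0.99, -0.89 and -0.72. Pou5f1 had 94.9 and 75.7 FPKM in the day 2 Thy1- libraries, against 336 and 327 FPKM in the Thy1+ libraries, where the later pairs were close to each other.

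**Figure D5:**
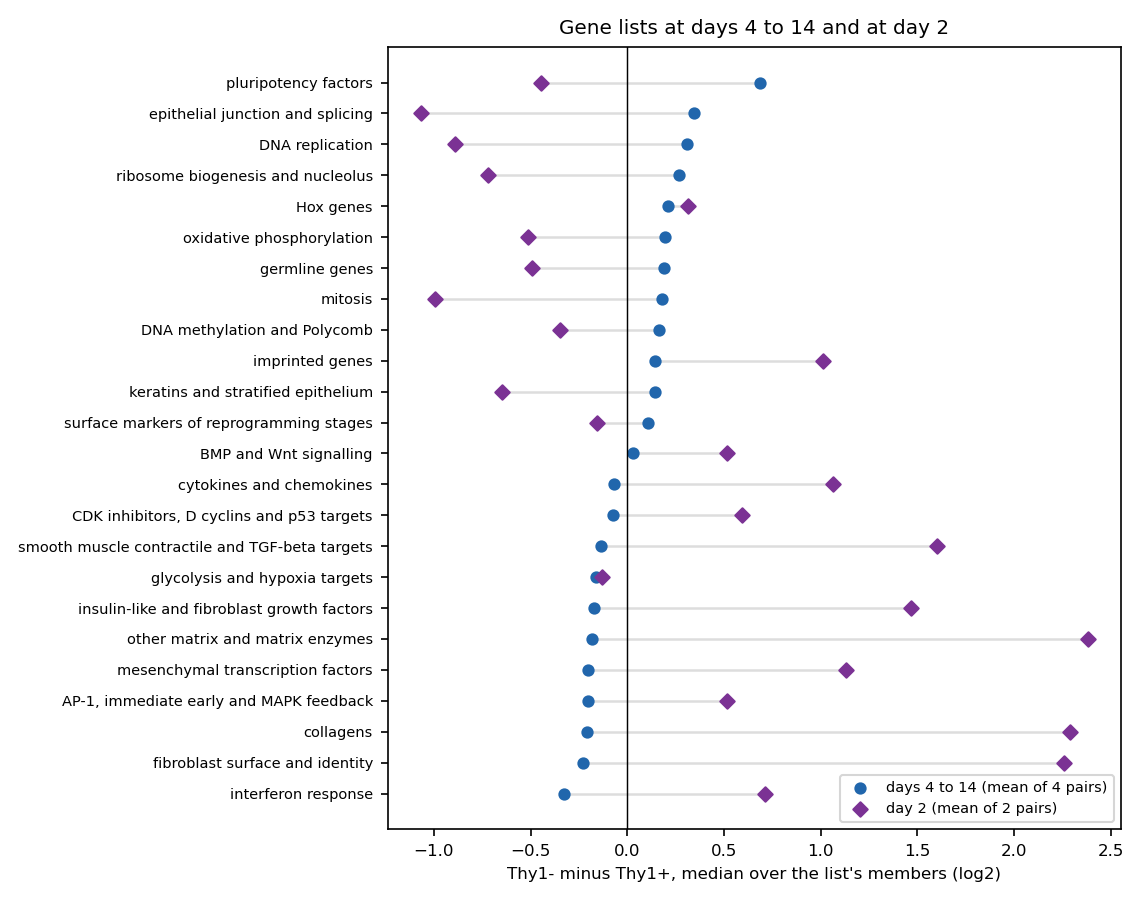
Median Thy1- minus Thy1+ difference (horizontal axis, log2 scale) over the tested members of each gene list, 1 row per list, at days 4 to 14 (circles, mean of 4 pairs) and at day 2 (diamonds, mean of 2 pairs). Matrix, collagen and fibroblast genes lie between -0.23 and -0.18 at days 4 to 14 and between 2.26 and 2.38 at day 2, and mitosis and replication genes lie above 0 at days 4 to 14 and below 0 at day 2.

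The genes that the naming rule picked for the difference from day 2 were mainly short RNAs with values at 0 in some libraries, among them Snord70, Snord68 and AC073947.1 with a higher and AL713994.1 with a lower difference. Dnm3os, the antisense host transcript of microRNAs of the mesenchyme, was another of these, and whether the counting used strand is not given in the sources used here. It had 54.3, 41.1, 72.2 and 27.2 FPKM in Thy1- libraries, against 137, 210.03, 51.7 and 26.7 FPKM in Thy1+ libraries at days 4 to 14. At day 2 it had 177 and 110 FPKM in Thy1- cells, against 39.7 and 0.512 FPKM in Thy1+ cells (adjusted p = 0.0296 for the difference between the periods).

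The pairs outside the comparison, which share no library with it, bear on the 94 genes in unequal ways. In the Dppa2/4 day 4 pair 33 of the 40 higher genes were higher and 48 of the 54 lower genes lower, where 48.2% and 50.2% of all genes went those ways. Dppa2 had 111 FPKM in the Thy1- and 0.354 FPKM in the Thy1+ library of that pair. Its libraries thus differed in Dppa2 level as well as in gate, which cannot be told apart. In the control day 2 pair the counts were 30 of 40 and 29 of 54, beside 55.9% and 42.1% of all genes. In the Dppa2/4 day 2 pair they were 30 of 40 and 18 of 54, beside 49.5% and 48.8%. The libraries of that pair too differed in Dppa2 level, with 81.8 FPKM in the Thy1- and 599 FPKM in the Thy1+ library. No test of the difference between these counts was made.

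Among the higher genes the values in other libraries differed, and 7 of the 40 are given as examples, chosen after these values were seen; they do not show how common each course is. Xist had 58.4 and 45.1 FPKM in the Thy1- libraries of day 2 (control, then Dppa2/4), against 0.604 and 0.732 FPKM in the Thy1+ libraries. In Thy1-SSEA1+ cells of control day 8, Dppa2/4 day 8 and Dppa2/4 day 14 it had 0.161, 0.0754 and 3.91 FPKM. Serpine2, a secreted protease inhibitor, had 384, 266, 178 and 456 FPKM in Thy1- libraries, against 128, 107, 53.9 and 146 FPKM in Thy1+ libraries (log2 difference 1.56, SE 0.09, adjusted p = 0.0155). It had 1114 and 1352 FPKM in Thy1- cells of day 2, against 92.5 and 107 FPKM in Thy1+ cells, and 44.9, 25.1 and 101 FPKM in the 3 Thy1-SSEA1+ libraries. Gzme had 43.4 and 127 FPKM in Thy1- cells of day 2, against 1.27 and 2.34 FPKM in Thy1+ cells, and 1.97, 2.11 and 5.27 FPKM in Thy1-SSEA1+ cells. These 3 genes were high in the Thy1- libraries of day 2 and low again in Thy1-SSEA1+ cells.

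In the 4 other examples the Thy1- libraries of day 2 lay below their Thy1+ partners, and Thy1-SSEA1+ cells had more message. Of the 40 higher genes 6 (15%) lay above Thy1- in all 3 Thy1-SSEA1+ libraries and 30 (75%) below, beside 21.7% and 27.4% of all genes. The Thy1- libraries of these counts also chose the 40 genes, so the counts are no separate result. Eras, a Ras family GTPase of embryonic stem cells, had 1.14, 2.7, 6.59 and 7.12 FPKM in Thy1- libraries, against 0.0849, 0.408, 1.73 and 2.86 FPKM in Thy1+ libraries (log2 difference 1.23, SE 0.13, adjusted p = 0.0434). It had 0 and 0.126 FPKM in Thy1- cells of day 2, against 0.034 and 0.878 FPKM in Thy1+ cells, and 18.3, 19.8 and 15 FPKM in the 3 Thy1-SSEA1+ libraries. Bex4, a small X-linked protein of the brain-expressed X-linked family, had 18.3, 31.3, 15.9 and 23.5 FPKM in Thy1- libraries, against 6.09, 7.78, 7.07 and 8.06 FPKM in Thy1+ libraries (log2 difference 1.46, SE 0.14, adjusted p = 0.0408), and 138, 38.5 and 51.5 FPKM in Thy1-SSEA1+ cells. Its day 2 values were 2.64 and 1.16 FPKM in Thy1- cells, against 3.89 and 11 FPKM in Thy1+ cells. Cd59b, a glycolipid-anchored inhibitor of the complement membrane attack complex, had 41.4, 53.2, 82.5 and 61.7 FPKM in Thy1- libraries, against 22.6, 17.8, 40.5 and 22.6 FPKM in Thy1+ libraries (log2 difference 1.2, SE 0.14, adjusted p = 0.0483), and 172, 229 and 239 FPKM in Thy1-SSEA1+ cells. At day 2 Cd59b had 22.5 and 24.3 FPKM in Thy1- cells, against 25.5 and 61.6 FPKM in Thy1+ cells. Cmah, the hydroxylase that makes the sialic acid Neu5Gc, had 24.8, 24, 38.2 and 15.3 FPKM in Thy1- libraries, against 10.7, 8.22, 19.3 and 7.12 FPKM in Thy1+ libraries (log2 difference 1.13, SE 0.11, adjusted p = 0.0408), and 87.3, 103 and 128 FPKM in Thy1-SSEA1+ cells. At day 2 Cmah had 6.56 and 7.07 FPKM in Thy1- cells, against 10.9 and 19.8 FPKM in Thy1+ cells. In all 4 genes the Thy1- value lay between those of Thy1+ and Thy1-SSEA1+ cells at control day 8, Dppa2/4 day 8 and Dppa2/4 day 14. That order is partly set by the choice of genes, which were called higher in Thy1- cells and picked with the Thy1-SSEA1+ values seen.

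Markers of other cell types were present at unequal levels. Of 18 macrophage and leukocyte markers 10 stayed below 1 FPKM, among them Ptprc, the pan-leukocyte antigen CD45, at or below 0.0667 FPKM, while the lysosomal protein Cd68 reached 34.4 FPKM and the lysozyme Lyz2 28 FPKM, and their summed level was 12 to 45.6 FPKM in Thy1- and 11.9 to 72.2 FPKM in Thy1+ libraries. Cd53, a leukocyte tetraspanin, had 1.28, 0.682, 1.59 and 1.85 FPKM in Thy1- libraries, against 0.214, 0.262, 0.309 and 0.622 FPKM in Thy1+ libraries, without overlap (log2 difference 0.78, SE 0.14, adjusted p = 0.0739; adjusted p = 0.0208 with protein-coding genes alone). Mcpt8, a serine protease of basophils that lies near Gzme in the same gene cluster on chromosome 14, had 49.4, 47.3, 79.3 and 182 FPKM in Thy1- libraries, against 4.16, 12.4, 21.2 and 52.8 FPKM in Thy1+ libraries (log2 difference 2.19, SE 0.28, adjusted p = 0.053; adjusted p = 0.00858 with protein-coding genes alone). The other mast cell and basophil markers were low: 8 of the 10 on that list stayed below 1 FPKM in all 8 libraries and 3 were at 0 throughout (the tryptases Tpsb2 and Tpsab1 and the IgE receptor chain Fcer1a). The list's sum was 48.6 to 186 FPKM in Thy1- and 4.97 to 58.0 FPKM in Thy1+ libraries, most of it Mcpt8. Endothelial markers summed to 56.5 to 134 FPKM in Thy1- and 76.3 to 139 FPKM in Thy1+ libraries, with Egfl7 up to 71.7 FPKM and Ramp2 up to 59 FPKM. Of the 7 tested, 3 were lower and 1 higher in 4 of 4 pairs (median -0.05), beside 22.6% and 14.2% of all genes. The higher one, Egfl7, had 14.8, 10.6, 47.8 and 71.7 FPKM in Thy1- libraries, against 10.8, 8.29, 33.5 and 66.9 FPKM in Thy1+ libraries. Tek, the angiopoietin receptor, had 16.3, 18.1, 11.3 and 3.43 FPKM in Thy1- libraries, against 29.3, 33, 15.7 and 5.65 FPKM in Thy1+ libraries (log2 difference -0.67, SE 0.10, adjusted p = 0.0625; adjusted p = 0.0176 with protein-coding genes alone), the lower value being that of Thy1- cells in every pair. Trophoblast markers summed to 6.31 to 63.5 FPKM in Thy1- and 1.34 to 48.3 FPKM in Thy1+ libraries, with Krt7 up to 41.5 FPKM. Of the 4 tested, 1 was higher (Tfap2c) and 1 lower (Hand1) in 4 of 4 pairs (median 0.02), beside 14.2% and 22.6% of all genes. Hand1 had 0, 0.189, 5.56 and 7.57 FPKM in Thy1- libraries, against 0.0463, 0.429, 6.92 and 13.4 FPKM in Thy1+ libraries. On that list Tfap2c, a factor of trophoblast and primordial germ cells, had 4.91, 15.1, 3.18 and 4.02 FPKM in Thy1- libraries, against 0.559, 2.03, 0.698 and 0.961 FPKM in Thy1+ libraries, without overlap (log2 difference 1.75, SE 0.22, adjusted p = 0.0513; adjusted p = 0.00812 with protein-coding genes alone). Neural markers, with Nes up to 46.8 FPKM, summed to 54.4 to 75.8 FPKM in Thy1- and 41.6 to 73.6 FPKM in Thy1+ libraries, and muscle markers to 3.44 to 22.5 FPKM in Thy1- and 5.08 to 17.9 FPKM in Thy1+ libraries. Adipocyte markers, with Fabp4 up to 30.5 FPKM, summed to 16 to 39.9 FPKM in Thy1- and 14.3 to 27.6 FPKM in Thy1+ libraries, and erythroid markers to 1.32 to 5.54 FPKM in Thy1- and 0.534 to 2.96 FPKM in Thy1+ libraries. Hbb-y, an embryonic beta-like globin, had 1.28, 0.826, 3.95 and 5.06 FPKM in Thy1- libraries, against 0.405, 0.142, 1.89 and 2.33 FPKM in Thy1+ libraries (log2 difference 0.75, SE 0.10, adjusted p = 0.053; adjusted p = 0.0127 with protein-coding genes alone), the higher value being that of Thy1- cells in every pair. Their part in the differences above was not tested.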

How the data were processed

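Sorted populations of reprogramming mouse fibroblasts were profiled by polyA RNA-seq, and the deposited values are FPKM per gene, which the authors made with TopHat2 and Cuffdiff on mm10, per the submitters' processing notes; versions and the handling of multiply mapped reads and strand are not given in the sources used here. The table of 37973 genes has 33 value columns, of which 30 could be matched to samples and 3 were not used. FPKM keeps no read totals, so depth was implied from the most common low product of FPKM and transcript length over 2007 genes with 1 transcript.

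Values were put on the log2(FPKM + 1) scale, which understates changes of low genes, with at least 1 FPKM in at least 2 libraries required. Thy1- was compared with Thy1+ with limma 3.58.1 in R 4.3.3 (empirical Bayes with trend, Benjamini-Hochberg adjustment over all genes), with arm and day as a block. Pairs share arm and day by their labels, which give no replicate numbers; the libraries of each pair deviated together from their gate means (r = 0.407 to 0.564), and own partners correlated best in 4 of 4 pairs. The same fit was made with an arm term and with a day 2 term, and was tested on simulated data first. The alternatives tried were the pseudocount, the filter, the scaling, the variance trend, protein-coding genes alone, no block, and other choices of pairs. The genes named are the 10 highest and 10 lowest among those called that moved 1 way in 4 of 4 pairs, called members of gene lists, and a fixed set of reprogramming genes; all other genes given with values were chosen after their values were seen. The comparison, its lists (34, with 736 distinct symbols) and this rule were chosen with earlier results of these data known. Gene classes and positions come from GENCODE vM21, and promoter sequences from RefSeq (GRCm38.p6). The result for 1 list gene is not reported here.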

Additional observations from a re-analysis of the deposited data

Results flagged for a closer look

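Among 75 groups of 4 pair values, 2 had a value apart from the other 3 by Dixon's criterion, where chance gives about 1 in 20 groups. The difference of Fut9 between Thy1- and Thy1+ cells was 0.18 on the log2 scale in Dppa2/4 day 8 and 0.07 to 0.09 in the other pairs, a gap of 0.845 of the range. The median of the cytokine and chemokine list was 0.12 in Dppa2/4 day 14 and -0.04 to -0.02 in the others, a gap of 0.869 of the range.

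The difference between the gates was itself different between the Dppa2/4 and control arms in 4 genes upwards and 6 downwards. On the log2(FPKM + 1) scale, where values listed at 0 make the size depend on the pseudocount, these were 6.15 in AC093451.1, 4.78 in SNORA17, 3.80 in a U6 gene, 3.70 in 5S_rRNA, -8.12 in Y_RNA, -7.42 in Gm17567, -6.11 in AC139568.1, -5.03 in Mir709, -4.59 in AL645988.1 and -4.08 in another U6 gene.

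Between days 4 to 14 and day 2 the difference between the gates was different in 1569 genes upwards and 3259 downwards. The 6 genes named for the highest change were Snord70 (8.62), Snord68 (7.81), the separate gene SNORD70 (7.56), AC073947.1 (5.98), U5 (5.85) and Mir214 (5.79). The 6 named for the lowest were AL713994.1 (-6.93), a U6 gene (-6.40), AL806523.1 (-5.79), AC137678.1 (-5.36), Dnm3os (-4.95) and Gm11161 (-4.77).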

How the results depend on the processing

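Each arm, day and gate has 1 library. Over the named genes that passed, 279 alternative values kept their direction and passed, 239 kept it and did not pass, and 2 changed sign. Without the replicate block 4 genes were higher and 3 lower, where the blocked fit had 40 and 54. The counts were 1 and 0 with no filter, 39 and 113 when a mean of 5 FPKM or more was required, 34 and 34 after quantile normalization, 21 and 17 with no variance trend, 320 and 720 with protein-coding genes alone, 0 and 1 with the day 2 pairs added, 30 and 21 in the control pairs alone, 55 and 20 in the Dppa2/4 pairs alone, and 17 and 21 in the day 8 pairs alone. With a pair left out they ran between 3 and 16 higher and between 2 and 5 lower, and with protein-coding genes alone, chosen after seeing the data, between 40 and 218 higher and between 48 and 551 lower (104 and 243 without Dppa2/4 day 8). The arm difference had 0 higher and 1 lower with a pseudocount of 0.1, 0 and 0 under the filter on the mean (0 calls in limma, beside 765 genes at an unadjusted p under 0.05 in the first fit), 6 and 6 with no trend, and 3 and 0 with protein-coding genes alone, chosen after seeing the data; with a pair left out it had between 0 and 9 higher and between 0 and 11 lower. The day 2 difference had 2181 higher and 2273 lower after quantile normalization; with a pair left out it had between 532 and 2354 higher and between 1706 and 3212 lower. Of the named genes that passed, those that changed sign were Tgfb3 (0.048) and Acta2 (0.021), both with the day 2 pairs added. Of those that had not passed, Dppa4 turned to -0.063 without control day 4, -0.043 without control day 8, -0.26 in the Dppa2/4 pairs alone and -0.55 with day 2 added. Dppa2 turned to -0.11 without control day 8, -0.13 in the Dppa2/4 pairs alone and -0.44 with day 2, and Sox2 to -0.0065 without Dppa2/4 day 14, -0.042 with Dppa2/4 day 4 added, -0.17 in the control pairs alone and -0.48 with day 2. Fut9 (-0.081), Trp53 (-0.076) and Cdkn2b (0.23) turned with day 2 added, Trp53 (-0.049) and Pou5f1 (0.026) in the Dppa2/4 pairs alone, and Cdkn2a (0.0050) in the day 8 pairs alone. With a pair left out, the highest values were 0.41 for Sox2 and 0.21 for Dppa2 and Dppa4. The cause was not tested.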
